A study of Mus musculus with 36 samples.

Results

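Major histocompatibility complex (MHC) class I antigen presentation was followed through 10 genes fixed by name, each of which matched 1 identifier among the 78239 gene identifiers of the count tables. They were *H2-K1* and *H2-D1* (class I heavy chains), *B2m* (the light chain, beta-2 microglobulin), *Tap1* and *Tap2* (the subunits of the peptide transporter), *Tapbp* (tapasin, which holds empty class I molecules at the transporter), *Psmb8*, *Psmb9* and *Psmb10* (the catalytic subunits of the immunoproteasome) and *Nlrc5* (the transactivator of class I genes). RNA sequencing covered kidney, heart and liver of male wild-type C57BL/6NCrl mice aged 8, 10 or 12 weeks, with 4 biological replicates in each of the 9 tissue and age groups and 36 libraries in all. All animals had been bought as healthy mice from 1 supplier, kept on standard chow, anaesthetised with ketamine and xylazine and bled before the tissues were frozen; none received a further treatment, so age was the only labelled variable within a tissue, and each library came from bulk tissue with all of its cell types. Each library held between 21031599 and 33637390 read pairs counted on a gene, without regard to strand.

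MHC class I molecules display peptides from proteins made inside a cell to CD8-positive T cells. The proteasome cuts proteins into peptides, the transporter moves the peptides into the endoplasmic reticulum, and a peptide that fits stabilises the complex of heavy chain and light chain, which then travels to the cell surface. Nearly all nucleated cells make class I, and interferons raise the production of the chains, the transporter and the 3 immunoproteasome subunits, which take the place of the constitutive subunits *Psmb5*, *Psmb6* and *Psmb7*.

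Of the members, 7 lie on chromosome 17 within or beside the MHC, *Psmb10* and *Nlrc5* on chromosome 8 and *B2m* on chromosome 2. RefSeq promoter windows were found for 8 of the 10 members, and each matched 1 place on its own chromosome in GRCm39. The 250 bases before the RefSeq start are shown for both heavy chains, for the light chain and for *Tap1*, because the 2 heavy chains had the most alike levels of any member pair over the kidney libraries (below) and *Tap1* shares its upstream region with *Psmb9*. They run 5′ to 3′ on the strand of the gene; capitals mark matches, on either strand, to CCAAT (Y box), TGACG (core of the X2 box), GGGATTCCC (core of a kappa B site) and GAAANNGAA (core of an interferon regulatory factor site). *H2-K1* is at chr17:34219322-34219571 on the minus strand, *H2-D1* at chr17:35481820-35482069, *B2m* at chr2:121977918-121978167 and *Tap1* at chr17:34406280-34406529, all on the plus strand.
H2-K1: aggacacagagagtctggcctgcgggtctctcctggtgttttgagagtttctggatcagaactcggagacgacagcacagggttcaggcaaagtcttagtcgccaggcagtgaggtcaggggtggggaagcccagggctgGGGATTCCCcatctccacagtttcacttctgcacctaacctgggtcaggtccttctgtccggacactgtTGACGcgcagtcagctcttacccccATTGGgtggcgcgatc
H2-D1: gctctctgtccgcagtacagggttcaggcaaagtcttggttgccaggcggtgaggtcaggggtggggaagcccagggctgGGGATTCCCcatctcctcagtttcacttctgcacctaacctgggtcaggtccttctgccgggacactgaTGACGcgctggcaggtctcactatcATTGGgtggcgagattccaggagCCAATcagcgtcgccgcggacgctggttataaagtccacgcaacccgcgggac
B2m: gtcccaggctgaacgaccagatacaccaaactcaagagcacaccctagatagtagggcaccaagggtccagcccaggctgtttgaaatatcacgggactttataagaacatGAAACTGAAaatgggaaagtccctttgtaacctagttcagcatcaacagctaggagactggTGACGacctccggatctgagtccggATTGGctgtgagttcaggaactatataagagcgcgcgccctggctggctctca
Tap1: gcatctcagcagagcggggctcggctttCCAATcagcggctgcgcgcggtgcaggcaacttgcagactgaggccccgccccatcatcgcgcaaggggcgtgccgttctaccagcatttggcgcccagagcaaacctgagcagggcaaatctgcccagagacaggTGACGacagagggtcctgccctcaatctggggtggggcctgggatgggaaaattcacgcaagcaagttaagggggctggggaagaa

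In *H2-K1* and *H2-D1* the kappa B core, the X2 core and the Y box stood in the same order, with 69 bases from the first base of GGGATTCCC to the first base of TGACG. In these 2 genes and in *B2m*, TGACG was followed after 20 bases by ATTGG, the Y box on the other strand. That spaced pair, picked out after it was seen in these windows, was present in 3 of the 8 member windows and in 0.0953% of the 32544 promoter windows of 300 bases in the table. GGGATTCCC occurred in 2 of 8 member windows and in 0.353% of all windows, GAAANNGAA in 1 of 8 (*B2m*) and 8.53%, TGACG in 5 of 8 and 20.9%, and CCAAT in 6 of 8 and 37.4%. The RefSeq starts of *Tap1* and *Psmb9*, which are transcribed away from each other, were 226 bases apart, and 275 bases of their windows were the same stretch read on opposite strands. The RefSeq starts of the 8 genes lay 0 to 479 bases from the start of the canonical GENCODE transcript, so parts of these windows fall inside GENCODE gene models. The matches describe letters only, and for an interferon regulatory factor site only GAAANNGAA was searched. A window without those letters, as in both heavy chains, is not shown to lack such a site.

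Levels are given in CPM, the count of a gene as a share of its library after scaling with TMM factors over all 36 libraries. In kidney, the organ placed first here, *B2m* was at 152 ± 23.5 CPM (mean ± SD, n = 12), *H2-D1* at 112 ± 16.2 CPM and *H2-K1* at 82.9 ± 14.1 CPM. *Tapbp* followed at 36.2 ± 1.95 CPM, and *Tap1* (7.17 ± 1.55 CPM), *Tap2* (7.02 ± 0.839 CPM), *Psmb10* (5.55 ± 0.806 CPM), *Nlrc5* (3.90 ± 1.18 CPM), *Psmb9* (3.09 ± 0.752 CPM) and *Psmb8* (2.19 ± 0.539 CPM) were lower. The counts behind these levels ranged from 48 to 144 pairs per kidney library for *Psmb8*, from 84 to 278 for *Nlrc5*, and from 3659 to 7596 for *B2m*. Divided by the length of the canonical transcript, the kidney levels ran from 140 ± 21.7 CPM per kilobase for *B2m*, through 53.0 ± 7.63 for *H2-D1* and 51.2 ± 8.72 for *H2-K1*, to 0.515 ± 0.155 for *Nlrc5*. *H2-D1* and *H2-K1* were closer to each other per kilobase than the spread of either over the 12 libraries.

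The order of the members per length is limited by the way pairs were counted, because a pair that overlaps genes on both strands was left out of the unstranded column. Counts of the first strand alone, doubled, were 1.82 times the unstranded count of *H2-K1* in kidney, 2.18 times in heart and 2.21 times in liver. The same ratio in kidney was 2.37 for *Psmb8*, 2.01 for *Tap2*, 1.89 for *Tapbp* and 1.34 for *H2-D1*, whereas it lay between 0.990 and 1.03 for *B2m*, *Tap1*, *Psmb9*, *Psmb10* and *Nlrc5*. *H2-K1* shares 26.8% of its exon bases with *Gm53999*, *H2-D1* 24.2% with *5430410E06Rik* and *Psmb8* 14.6% with *Gm20496*, all long noncoding genes annotated on the opposite strand. *Tapbp* shares 25.6% with *Gm19412*, also long noncoding and on the opposite strand, and 20.9% with *Zbtb22*, a protein-coding gene on the same strand. *Tap1* and *Psmb9* share 743 exon bases on opposite strands. The libraries carried no strand information (49.8% to 50.2% of pairs on the first strand), so pairs from a member and from its antisense partner cannot be told apart. Exact identity with paralogues was small: 1.78% of the 150-base windows of *H2-D1* occur in *H2-Q1*, and no window of the other 9 members occurs in another gene.

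**Figure D1:**
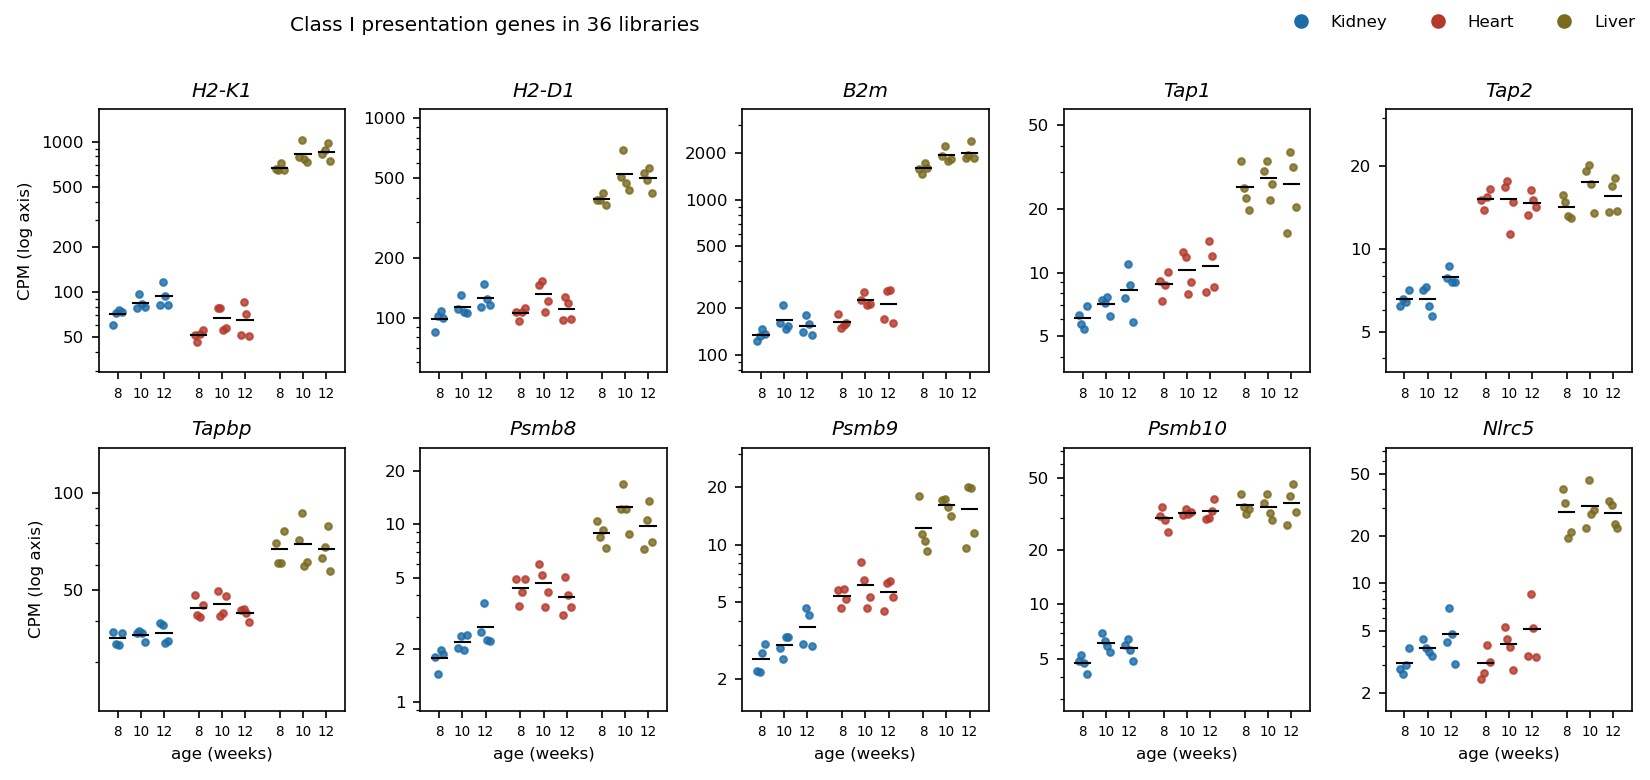
Level of each of the 10 genes in CPM (log axis, its own range in each panel) against age in weeks; each point is a library, coloured by tissue, and each black line is the mean of 4 libraries. For 8 of the 10 genes, all but *Tap2* and *Psmb10*, every liver library lies above every heart library, and for all 10 every liver library lies above every kidney library. The share of all genes so separated was not counted.

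The first comparison asked whether the members changed in kidney between 8 and 12 weeks. *H2-K1* was at 60.5, 73.1, 76.4 and 73.6 CPM in the 4 kidneys at 8 weeks, at 77.8, 97.1, 82.7 and 79.3 CPM at 10 weeks, and at 81.9, 116.1, 93.9 and 82.6 CPM at 12 weeks. *H2-D1* was at 84.8, 102, 107 and 99.0 CPM at 8 weeks and at 112.5, 147.6, 124.5 and 115.1 CPM at 12 weeks. For both heavy chains the 12-week kidneys all stood above the 8-week kidneys, and the same 12-week replicate, the second, was the highest. The log2 fold change at 12 against 8 weeks was 0.41 (SE 0.11) for *H2-K1* and 0.35 (SE 0.10) for *H2-D1*, and neither passed the test over all genes (adjusted p = 0.216 for both, edgeR quasi-likelihood test with Benjamini-Hochberg adjustment over 17649 genes).

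*B2m*, the partner of both heavy chains, was at 124, 133, 148 and 137 CPM at 8 weeks and at 142, 181, 157 and 134 CPM at 12 weeks, and these ranges overlapped (log2 fold change 0.19, SE 0.11, adjusted p = 0.538 in edgeR). Its highest kidney value, 209 CPM, was in a 10-week library. Of the transporter genes, *Tap2* was at 6.21, 6.56, 6.44 and 7.08 CPM at 8 weeks and at 7.84, 8.66, 7.58 and 7.56 CPM at 12 weeks, without overlap, while *Tap1* ran from 5.38 to 6.98 CPM at 8 weeks and from 5.82 to 11.01 CPM at 12 weeks. *Tapbp* was the steadiest member in kidney, from 33.8 to 37.0 CPM at 8 weeks and from 34.3 to 39.7 CPM at 12 weeks.

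*Psmb8* was at 1.79, 1.43, 1.96 and 1.87 CPM at 8 weeks and at 2.48, 3.63, 2.24 and 2.21 CPM at 12 weeks, again without overlap. *Psmb9*, its neighbour in the MHC, was at 2.19, 2.18, 2.71 and 3.05 CPM and at 3.04, 4.66, 4.32 and 2.95 CPM, with overlap. *Nlrc5* was at 2.84, 2.65, 3.00 and 3.86 CPM at 8 weeks and at 4.24, 7.002, 4.77 and 3.06 CPM at 12 weeks. The log2 fold changes were 0.58 (SE 0.18) for *Psmb8*, 0.56 (SE 0.17) for *Psmb9*, 0.27 (SE 0.11) for *Psmb10* and 0.63 (SE 0.21) for *Nlrc5*.

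Taking the 10 genes as a list, 0 were called at an adjusted p under 0.05 by edgeR, and 0 by DESeq2 and by limma-voom, against 0.0567% of all kidney genes in edgeR. All 10 log2 fold changes were positive (median 0.38, against 0.00 over all genes kept), and 8 of 10 had an unadjusted p under 0.05, where 6.82% of kidney genes had one in this direction; *B2m* and *Tapbp* were the exceptions. In 4 of 10 (*H2-K1*, *H2-D1*, *Tap2* and *Psmb8*) the 12-week kidneys were all above the 8-week kidneys, as they were in 3.41% of all genes. The members share their libraries and are not independent of each other. When genes with low counts were not filtered out, 4 members (*H2-K1*, *H2-D1*, *Tap1* and *Nlrc5*) passed an adjusted p under 0.05, with 1.22% of genes called under that setting.

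**Figure D2:**
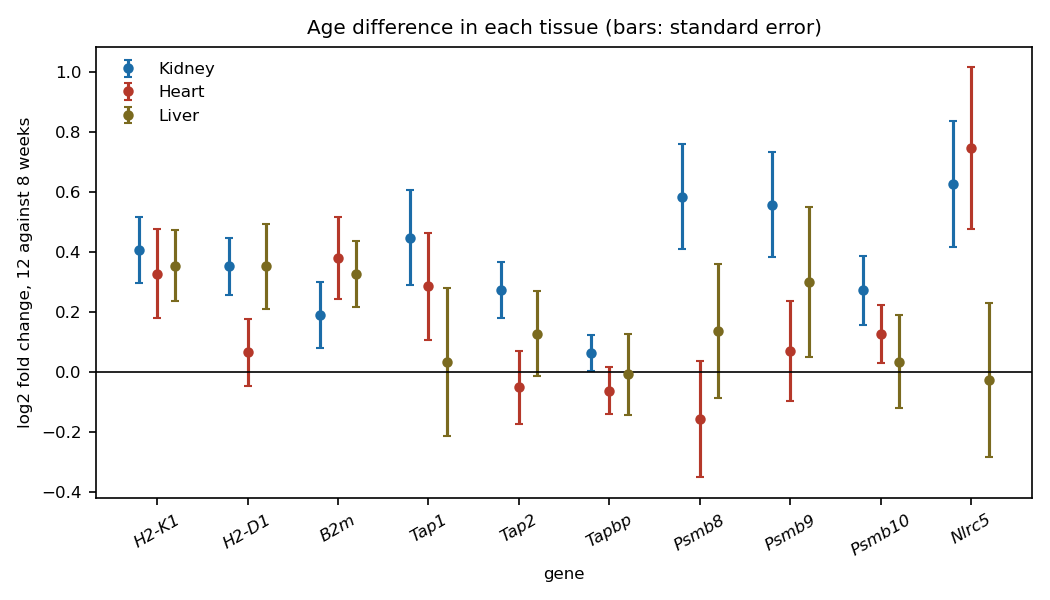
Fitted log2 fold change at 12 against 8 weeks (vertical axis) of each gene in kidney, heart and liver, with bars of 1 standard error. The 10 kidney points are all above 0, from 0.06 for *Tapbp* to 0.63 for *Nlrc5*, and no point passed the adjusted test.

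The kidney libraries did not contribute equally to this pattern. Relative to the 8-week mean, the mean log2 level of the 10 genes was 0.28, 0.67, 0.37 and 0.12 in the 4 libraries at 12 weeks, 0.25, 0.32, 0.19 and 0.15 at 10 weeks, and between -0.07 and 0.10 at 8 weeks. The second 12-week replicate was thus the highest, with *Nlrc5* 1.197 above its 8-week mean on the log2 scale, and without this library the log2 fold changes were 0.28 for *H2-K1*, 0.26 for *H2-D1*, 0.39 for *Psmb8*, 0.43 for *Psmb9*, 0.38 for *Nlrc5* and 0.10 for *B2m*, with 0 members called. In that library the summed level of the 4 class II markers (*H2-Aa*, *H2-Ab1*, *H2-Eb1* and *Cd74*, genes of professional antigen-presenting cells) was 310 CPM, against 149 to 217 CPM in the other 11 kidneys. Its sum of the 3 general leukocyte markers was 27.3 CPM against 17.0 to 22.1 CPM, that of the 6 macrophage markers 105 CPM against 73.2 to 93.8 CPM, and that of the 5 B and plasma cell markers 15.5 CPM against 1.44 to 11.04 CPM.

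Between ages, the class II sum was 149 to 176 CPM in the 8-week kidneys, 180 to 186 CPM at 10 weeks and 191 to 310 CPM at 12 weeks; the macrophage sum was 73.2 to 80.8, 73.2 to 87.3 and 83.3 to 105 CPM; the leukocyte sum was 17.0 to 21.5, 17.1 to 21.2 and 18.9 to 27.3 CPM. The B and plasma cell sum was 1.44 to 2.85, 1.44 to 3.51 and 3.96 to 15.5 CPM, most of it *Jchain*, and the sum of the 6 T and NK cell markers was 1.03 to 1.85, 1.76 to 2.54 and 1.61 to 2.95 CPM. The endothelial sum of 4 markers was 157 to 184, 165 to 180 and 159 to 194 CPM. At 12 against 8 weeks in kidney, edgeR called 0 of the 4 class II markers and 0 of the 6 macrophage markers tested. It also called 0 of the 3 leukocyte, 2 B and plasma cell, 4 T and NK cell and 4 endothelial markers tested. Of all kidney genes, 0.0567% were called. The part of these cells in the levels of the class I genes was not tested, and in bulk tissue more cells of a type and more RNA per cell cannot be told apart.

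**Figure D3:**
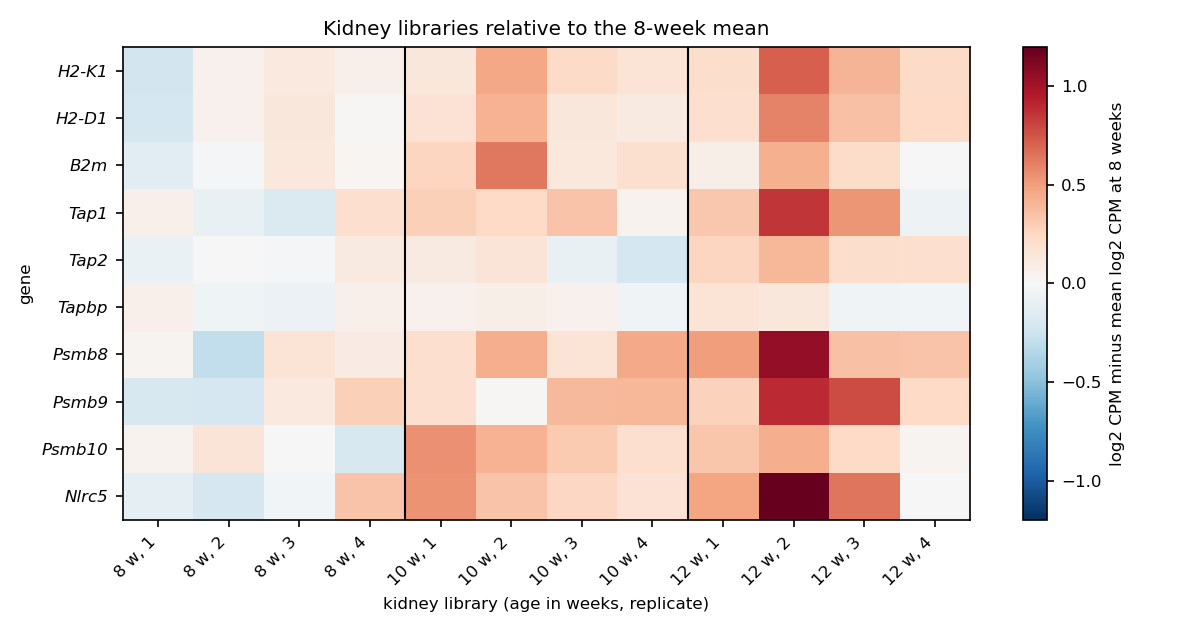
Log2 CPM of the 10 genes (rows) in the 12 kidney libraries (columns, by age and replicate) minus the gene's mean log2 CPM at 8 weeks; red is higher, blue lower. The second 12-week library has the highest value in 7 of the 10 rows, and *Tapbp* is nearly level throughout.

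The intermediate age gave a similar direction with other leading genes. At 10 against 8 weeks in kidney, 0 of 10 members were called by edgeR (0.929% of all genes were) and 0 by limma-voom, and DESeq2 called 1, *Psmb10* (log2 fold change 0.39, adjusted p = 0.0433), with 4.46% of genes called by that tool. *Psmb10* was at 4.90, 5.28, 4.74 and 4.15 CPM at 8 weeks and at 6.93, 6.32, 5.90 and 5.47 CPM at 10 weeks, without overlap. In 3 of 10 members (*Psmb10*, *H2-K1* and *Psmb8*) the 10-week kidneys were all above the 8-week kidneys. The share of all genes so separated was not counted. Unadjusted p-values under 0.05 were found for 4 of 10, all higher at 10 weeks (*B2m* 0.34, *Psmb10* 0.39, *H2-K1* 0.27 and *H2-D1* 0.23 on the log2 scale), against 8.96% of genes. With no filter on low counts 2 members passed, *B2m* and *H2-K1*, and 2.39% of genes did. At 12 against 10 weeks 0 of 10 were called by edgeR, DESeq2 or limma-voom (0.482% of genes in edgeR), and 1, *Tap2*, had an unadjusted p under 0.05 and was higher at 12 weeks (log2 fold change 0.25, SE 0.09), against 8.66% of genes. *B2m* and *Psmb10* had negative values there (-0.15 and -0.12).

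The other genes of the pathway were read from a list of 39, of which 37 passed the filter in kidney. At 12 against 8 weeks 1 of 37 was called and higher, *Irf1*, a transcription factor induced by interferon gamma, and 0 were called and lower; 31 of 37 log2 fold changes were positive (median 0.14), as were 50.8% over all genes, of which 0.0567% were called. *Irf1* was at 6.71 to 7.39 CPM at 8 weeks, 8.11 to 9.53 CPM at 10 weeks and 9.88 to 12.4 CPM at 12 weeks, so the 3 ages did not overlap (12 against 8 weeks: log2 fold change 0.57, SE 0.09, adjusted p = 0.0327 in edgeR). That call held in 10 of 21 alternative settings (DESeq2 called 2 genes of the list, limma-voom 1, and scaling by library size 0) and in 5 of the 12 fits that left out 1 library, in which the adjusted p reached 0.119. At 10 against 8 weeks, where 0.929% of all genes were called, 2 of 37 were called and higher: *Sec61b*, a subunit of the protein channel of the endoplasmic reticulum (log2 fold change 0.39, SE 0.08, adjusted p = 0.0336 in edgeR), and *Psmb6*, the constitutive proteasome subunit that *Psmb9* replaces (log2 fold change 0.23, SE 0.04, adjusted p = 0.0287 in edgeR). Leaving out 1 library kept the first call in 7 of 12 fits and the second in 6 of 12. At 12 against 10 weeks 0 of 37 were called by edgeR and limma-voom and 1, lower, by DESeq2. At an unadjusted p under 0.05, 2 were higher and 1 lower there (8.66% and 7.74% of all genes). The shares of all genes called by DESeq2 and limma-voom in kidney at 12 against 8 and 12 against 10 weeks are not given here.

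Among the 10187 genes with a mean of at least 5 CPM in kidney, the 10 outside the member list whose log2 level followed the mean of the members most closely over the 12 kidney libraries were *Gm49172*, a long noncoding gene on chromosome 15 (Pearson r = 0.928), *H2-Ab1* (0.863), *Irf1* (0.861), *Irgm1* (0.859), *H2-Eb1* (0.853), *H2-Q4* (0.845), *Irgm2* (0.842), *Ugcg* (0.839), *Iigp1* (0.834) and *H6pd* (0.834). *Irgm1*, *Irgm2* and *Iigp1* encode interferon-inducible GTPases, *H2-Ab1* and *H2-Eb1* class II beta chains, and *H2-Q4* a further class I heavy chain. Of the members that reach this level, *H2-K1* (0.924), *Tap1* (0.902) and *H2-D1* (0.901) followed that mean most closely, and *Tapbp* least (0.520). Each member is part of that mean, so these values cannot be set against those of the genes outside the list. Within the list, *H2-K1* and *H2-D1* had r = 0.98, *Tap1* and *Nlrc5* r = 0.94, and *Tapbp* and *Psmb9* r = 0.19. The libraries differ in age and share their normalisation, and these values are given as a description.

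In heart, 0 of 10 members were called at 12 against 8 weeks by edgeR, DESeq2 or limma-voom, where 4.56% of all genes were called by edgeR. *B2m* was at 184, 150, 156 and 160 CPM in the hearts at 8 weeks, 224, 255, 209 and 213 CPM at 10 weeks, and 171, 256.5, 260.1 and 160 CPM at 12 weeks: all 10-week hearts stood above the 8-week hearts, while the 12-week hearts split into a lower and a higher pair. No other member was without overlap between 8 and 10 weeks, and the share of all genes so separated was not counted. *Nlrc5* was at 2.47, 2.68, 4.04 and 3.18 CPM at 8 weeks and at 3.44, 8.53, 5.16 and 3.42 CPM at 12 weeks. The unadjusted p was under 0.05 for 3 of 10, all higher at 12 weeks (*B2m* 0.38, SE 0.14; *Nlrc5* 0.74, SE 0.27; *H2-K1* 0.33, SE 0.15 on the log2 scale), against 12.1% of genes. In 0 of 10 members did all 12-week hearts lie above all 8-week hearts, as 7.31% of genes did. Without the fourth 12-week heart, *B2m* (log2 fold change 0.49, adjusted p = 0.0218 in edgeR) and *Nlrc5* (0.90, adjusted p = 0.0442 in edgeR) passed, with 12.2% of all genes called in that fit. Without the second 12-week heart, which had the highest *H2-K1* and *Nlrc5* of its group, the log2 fold changes were 0.38 for *Nlrc5*, 0.16 for *H2-K1* and 0.27 for *B2m*, and that of *B2m* was 0.25 without the third. None of these was called. With no filter, 3 passed (*B2m*, *Nlrc5* and *H2-K1*), with 3.09% of genes.

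At 10 against 8 weeks in heart, 0 of 10 were called by edgeR (1.06% of genes) and by limma-voom, and 3 had an unadjusted p under 0.05, all higher at 10 weeks (*B2m* 0.47, *H2-K1* 0.38 and *H2-D1* 0.33 on the log2 scale), against 8.26% of genes. DESeq2 called 1 member, *B2m* (adjusted p = 0.0339), with 2.42% of genes, and so did the fit of these 2 ages alone (adjusted p = 0.0241 in edgeR), with 1.24%. With no filter 3 passed, *B2m*, *H2-K1* and *H2-D1*, with 2.18% of genes. At 12 against 10 weeks 0 of 10 were called by edgeR, DESeq2 or limma-voom (0.0396% of genes in edgeR), and 0 of 10 had an unadjusted p under 0.05 and a higher level at 12 weeks, against 5.69% of genes; *H2-D1* had one with a log2 fold change of -0.26 (SE 0.11). Of the 34 pathway genes that passed the filter in heart, 1 was called by edgeR at 12 against 8 weeks, where 4.56% of all genes were. DESeq2 called 3 higher and 1 lower, and limma-voom 1 higher and 1 lower. The shares of all genes called by these tools at 12 against 8 weeks in heart are not given here. The edgeR call was *Psmb7*, the constitutive subunit that *Psmb10* replaces, at 65.6 to 75.6 CPM at 8 weeks and 86.4 to 107 CPM at 12 weeks (log2 fold change 0.35, SE 0.08, adjusted p = 0.0302 in edgeR). This call held in 6 of the 12 fits that left out 1 library. *Psmb5*, another constitutive subunit, had a negative value (-0.38, SE 0.11, adjusted p = 0.0509 in edgeR). In each of the other age comparisons 0 of 34 were called by edgeR, DESeq2 or limma-voom. At 10 against 8 weeks 5 were higher and 0 lower at an unadjusted p under 0.05 (8.26% and 7.50% of all genes), and at 12 against 10 weeks 4 were higher and 2 lower (5.69% and 6.04%). The macrophage sum was 125 to 173 CPM at 8 weeks, 148 to 189 CPM at 10 weeks and 122 to 146 CPM at 12 weeks in heart, the leukocyte sum 23.4 to 32.3, 30.3 to 36.4 and 22.6 to 33.8 CPM, the class II sum 110 to 147, 117 to 155 and 122 to 195 CPM, and the T and NK cell sum 0.529 to 0.896, 0.871 to 1.07 and 0.238 to 0.930 CPM. The hepatocyte markers in heart summed to 0.206 to 0.769 CPM at 8 weeks, 1.44 to 25.1 CPM at 10 weeks and 0.792 to 4.25 CPM at 12 weeks, and of the 5 tested 2 were called and higher at 10 against 8 weeks. The part of these cells in the heart levels was not tested.

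In liver, the heavy chains and *B2m* were separated between 8 and 12 weeks although 0 of 10 members were called (edgeR, DESeq2 and limma-voom; 0.239% of genes in edgeR). *H2-K1* was at 654, 645, 725 and 643 CPM in the livers at 8 weeks and at 822, 879, 981 and 748 CPM at 12 weeks. *H2-D1* was at 391, 387, 422.5 and 367 CPM at 8 weeks and at 533, 490, 563 and 423.1 CPM at 12 weeks. *B2m* was at 1574, 1465, 1708 and 1603 CPM and at 1839, 1946, 2377 and 1846 CPM. These 3 of 10 had all 12-week livers above all 8-week livers, as had 4.40% of genes, and the same 3 had an unadjusted p under 0.05 (log2 fold changes 0.35, 0.35 and 0.33), against 7.37% of genes. The transporter and immunoproteasome genes overlapped between the ages, for example *Tap1* at 19.9 to 34.0 CPM at 8 weeks and 15.4 to 37.2 CPM at 12 weeks.

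At 10 against 8 weeks in liver 0 of 10 were called (0.0204% of genes in edgeR; 0 members by DESeq2 and limma-voom), and 4 had an unadjusted p under 0.05, all higher at 10 weeks (*Psmb8* 0.50, *H2-D1* 0.42, *H2-K1* 0.31 and *B2m* 0.28 on the log2 scale), against 7.04% of genes. At 12 against 10 weeks 0 of 10 were called by edgeR, DESeq2 or limma-voom (0.0545% of genes in edgeR), and 0 of 10 had an unadjusted p under 0.05 in the higher direction (6.36% of genes) or the lower. Of the 37 pathway genes kept in liver, 0 were called by edgeR in any age comparison. At 12 against 8 weeks 9 were higher and 3 lower at an unadjusted p under 0.05 (7.37% and 7.77% of all genes). In the age comparisons limma-voom called 0, and DESeq2 called 2 at 12 against 8 weeks and 1 in each of the others. The shares of all genes called by DESeq2 in liver are not given here. The macrophage sum was 98.3 to 189 CPM at 8 weeks, 211 to 328 CPM at 10 weeks and 121 to 138 CPM at 12 weeks in liver, the leukocyte sum 16.8 to 28.0, 32.3 to 48.7 and 19.6 to 26.9 CPM, the class II sum 58.2 to 80.8, 99.7 to 158 and 64.7 to 132 CPM, and the endothelial sum 84.7 to 140.9, 140.9 to 154 and 56.6 to 89.6 CPM. All 4 endothelial markers were lower at 12 than at 10 weeks at an unadjusted p under 0.05 (7.77% of all genes), with 0 called by edgeR (0.0545% of all genes). These markers share their libraries and are not independent of each other. The part of these cells in the levels of the class I genes in liver was not tested.

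Whether the difference between 12 and 8 weeks itself differed between organs was tested as an interaction over all 36 libraries, taken as independent. Against heart, 0 of 10 members were called by edgeR, DESeq2 or limma-voom (0.112% of genes in edgeR), and 1, *Psmb8*, had an unadjusted p under 0.05, its log2 change being larger in kidney by 0.73 (SE 0.31, adjusted p = 0.360 in edgeR). *Psmb8* was at 3.45 to 4.91 CPM in the 8-week hearts and 3.10 to 5.08 CPM in the 12-week hearts. Against liver, 0 of 10 were called by the same tools (0.304% of genes in edgeR) and 0 had an unadjusted p under 0.05. For *H2-K1* the change in kidney minus that in heart was 0.07 (SE 0.20) and minus that in liver 0.04 (SE 0.20), which does not show the changes to be equal.

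With TMM factors every member was lower in kidney than in liver, from -0.91 (SE 0.06) on the log2 scale for *Tapbp* to -3.59 (SE 0.09) for *B2m*. The 12 and 12 libraries did not overlap for any member, but by library size alone those of *Tapbp*, *Tap1* and *Tap2* did. The share of all genes without overlap was not counted for any pair of organs. *B2m* was at 1840 ± 259 CPM in liver and 152 ± 23.5 CPM in kidney (mean ± SD, n = 12 each), *H2-K1* at 785 ± 125 and 82.9 ± 14.1 CPM, and *Nlrc5* at 29.2 ± 8.00 and 3.90 ± 1.18 CPM. All 10 were called (largest adjusted p = 1.7e-15, for *Tap1*, edgeR), but so were 83.1% of all genes in either direction, so that a call is common in this comparison. Of all 19716 genes kept, 7303 were called and lower. Scaled by library size alone, *Tapbp* was at -0.11 and was not called (adjusted p = 0.0617 in edgeR). The median log2 fold change of the members was -2.25, against 0.16 over all genes kept.

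Against heart, 8 of 10 members were called in kidney, and 86.1% of all genes were. *H2-K1* was higher in kidney (82.9 ± 14.1 against 61.3 ± 13.1 CPM, log2 fold change 0.44, SE 0.08, adjusted p = 1.2e-05 in edgeR), although the libraries overlapped; on first-strand counts this difference was 0.23 and was still called. *Psmb10* was lower in kidney (5.55 ± 0.806 against 31.6 ± 3.22 CPM, log2 fold change -2.52, SE 0.08) and *Tap2* likewise (7.02 ± 0.839 against 15.1 ± 1.74 CPM, -1.11, SE 0.07), both without overlap. By library size alone the libraries of *Tap2* overlapped. *Psmb8* (-0.99, SE 0.13) and *Psmb9* (-0.91, SE 0.13) were also lower in kidney (-0.46 and -0.38 when scaled by library size alone), as were *Tap1* (-0.48), *B2m* (-0.38) and *Tapbp* (-0.28), which turned to 0.05, 0.14 and 0.25 when scaled by library size alone. *H2-D1* (-0.04, SE 0.07) and *Nlrc5* (-0.07, SE 0.16) were not called, and by library size alone they were 0.48 and 0.46 and were called (adjusted p = 9.9e-08 and 0.0107 in edgeR). With a log2 fold change over 1 also required, 2 of 10 were called (*Psmb10* and *Tap2*), where 52.6% of all genes were. By library size alone *Tap2* was at -0.58, within that limit, *Psmb10* at -1.99 and *H2-K1* at 0.96.

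In liver against heart 9 of 10 members were called and higher. Of all 19716 genes kept, 84.2% were called in either direction, and 8315 were called and higher. *H2-K1* differed by 3.68 (SE 0.09) on the log2 scale, *B2m* by 3.21 (SE 0.08), *Nlrc5* by 2.86 (SE 0.16) and *H2-D1* by 2.03 (SE 0.08), and each was without overlap between the libraries. *Tap1* (1.42), *Psmb9* (1.33), *Psmb8* (1.26) and *Tapbp* (0.63) followed, also without overlap. By library size alone the libraries overlapped for *Tap1*, *Psmb9*, *Psmb8* and *Tapbp*. *Psmb10* was at 35.4 ± 5.49 CPM in liver and 31.6 ± 3.22 CPM in heart, a difference of 0.16 (SE 0.07, adjusted p = 0.0385 in edgeR) that kept its direction but lost its call in 12 of 44 alternative settings and turned to -0.10 when scaled by library size alone. *Tap2* was at 15.8 ± 2.52 and 15.1 ± 1.74 CPM and was not called (0.06, SE 0.07), and it was -0.20 by library size alone and called (adjusted p = 0.0095 in edgeR).

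The order of the organs with TMM factors therefore varied among the members. It was liver, kidney, heart for *H2-K1*, and liver, heart, kidney for *B2m*, *Tap1*, *Tapbp*, *Psmb8* and *Psmb9*. The same order held for *Psmb10*, but its liver and heart libraries overlapped and the call between them was lost in 12 of 44 alternative settings. For *H2-D1* and *Nlrc5*, liver stood above heart and kidney, whose levels were not called as different. For *Tap2*, liver and heart stood above kidney, and the liver and heart levels were not called as different. By library size alone the order of kidney and heart turned for *H2-D1*, *B2m*, *Tap1*, *Tapbp* and *Nlrc5*, and that of liver and heart for *Tap2* and *Psmb10*, with the calls given above. The median of all genes kept was 0.15 (kidney against heart), 0.16 (kidney against liver) and 0.00 (liver against heart) with TMM factors, and 0.67, 0.93 and -0.22 by library size alone.

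**Figure D4:**
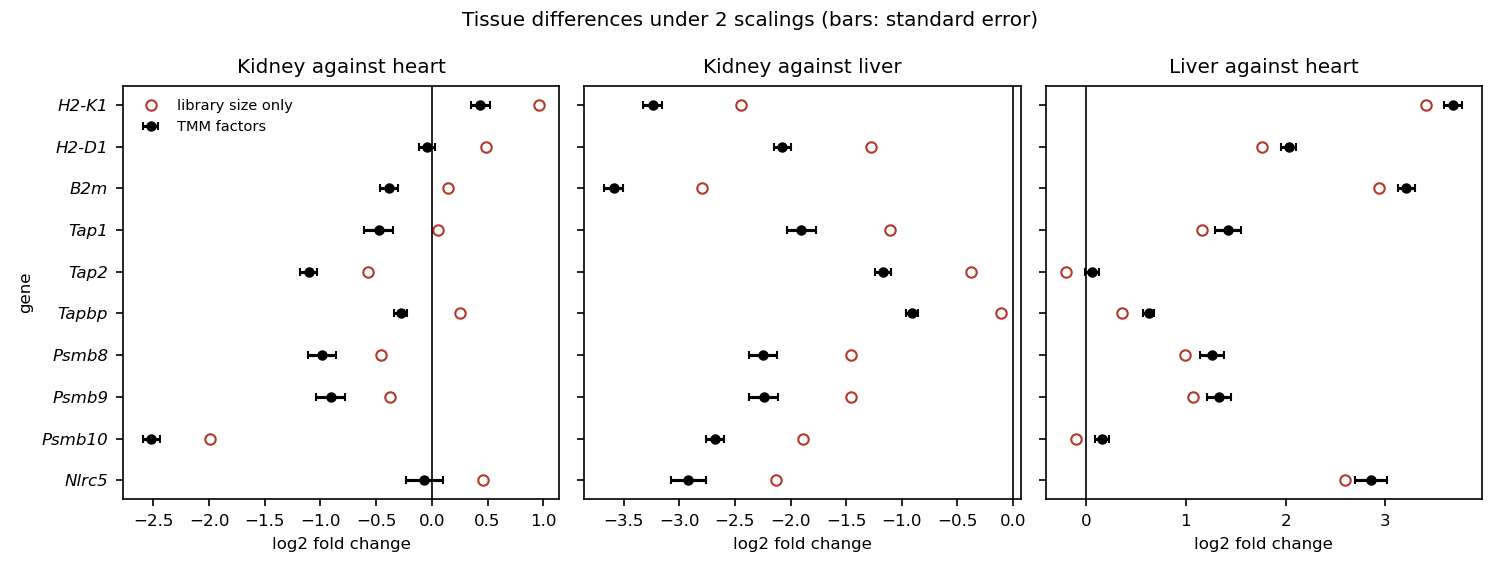
Log2 fold change (horizontal axis) of each gene between organs with TMM factors (filled, bars of 1 standard error) and with library size alone (open). The 10 values against liver stay below 0 under both scalings, and 5 of the values of kidney against heart change sign.

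The rest of the pathway differed between organs gene by gene, and the direction of many genes depended on the scaling. Of 38 pathway genes kept over the 3 organs, 15 were called and higher and 21 called and lower in kidney against heart with TMM factors, and 21 and 10 by library size alone. Against liver the counts were 5 and 30 with TMM factors and 15 and 18 by library size alone, and in liver against heart they were 29 and 7, and 24 and 10. Of all 19716 genes kept, 9282 were called and higher and 7694 called and lower in kidney against heart with TMM factors. By library size alone these were 12170 and 5183. Against liver they were 9074 and 7303, and 14248 and 3344. For liver against heart they were 8315 and 8277, and 6999 and 9508. With TMM factors 86.1%, 83.1% and 84.2% of all genes were called, so that a call is common in these comparisons. *Psme1*, a subunit of the proteasome activator, was lower in kidney than in heart and in liver under both scalings (-1.75 and -1.61 on the log2 scale with TMM factors, -1.23 and -0.81 by library size), and so was *Psmb6* (-0.64 and -0.91, and -0.11 and -0.12). *Psmb5* (-0.32 against heart and -0.53 against liver) and *Psmb7* (-0.47 and -0.61) turned to positive values by library size alone.

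*Sec61b* was higher in kidney than in heart (1.59 with TMM factors, 2.12 by library size), and *Erap1*, the peptide trimming enzyme, lower than in liver (-2.09 and -1.29). Among the regulators, *Ifngr2*, a chain of the interferon gamma receptor, was at 14.1 ± 1.58 CPM in kidney and 155 ± 15.4 CPM in heart (-3.45 with TMM factors, -2.93 by library size), and *Irf2* differed between kidney and liver by -2.44 and -1.65.

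Of the 14 other class I and class I-like heavy chains, 7 were called and higher and 6 called and lower in kidney against heart with TMM factors, and 7 and 4 by library size alone. Against liver the counts were 2 and 10 with TMM factors and 6 and 7 by library size alone. With TMM factors 86.1% of all genes were called against heart and 83.1% against liver, so that most genes are called in both comparisons. *H2-Q10*, which encodes a secreted class I chain made by the liver, was at 2073 ± 236 CPM in liver, 0.355 ± 0.197 CPM in kidney and 0.214 ± 0.216 CPM in heart (mean ± SD, n = 12). *H2-Q2* had the largest value against heart and was near 0 there, at 1.01 ± 0.210 CPM in kidney and at most 0.164 CPM in any heart library.

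The labelled organs matched their defining markers. The 6 kidney markers summed to 7127 to 8097 CPM in the kidneys and to at most 1.44 CPM elsewhere, and the 6 cardiomyocyte markers to at least 47629 CPM in the hearts and at most 3.64 CPM elsewhere. The 6 hepatocyte markers summed to at least 97196 CPM in the livers and at most 25.1 CPM in the hearts (at 10 weeks), while in the kidneys they summed to 1200 to 2011 CPM, mostly *Cyp2e1*, with *Alb* at 4.97 ± 0.850 CPM. The 4 brown fat markers summed to at most 25.9 CPM in the kidneys, 25.6 CPM in the hearts, mostly *Cidea*, and 355 CPM in the livers, mostly *Elovl3*.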

How the data were processed

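PolyA RNA from kidney, heart and liver was sequenced as paired-end reads. The authors trimmed the reads with cutadapt 4.2 after checks with FastQC 0.11.9, aligned them to GRCm39 with STAR 2.7.11b and deposited its gene counts. The deposited unstranded count of each library was used, and the strand columns served for a check. The 4 summary lines that name no gene held 21.2% to 31.4% of the pairs and were left out of library sizes. Genes above 0 in at least 2 libraries and with a mean count of at least 10 in an age group were tested with edgeR 4.0.16 (quasi-likelihood, TMM factors, R 4.3.3), per tissue over 12 libraries for age and over 36 libraries with 9 group means for tissues and interactions. P-values were adjusted by Benjamini-Hochberg over all genes tested and called under 0.05. DESeq2 1.42.0, limma 3.58.1, other scalings and filters, first-strand counts, a replicate block and leaving out each library were alternatives. The scripts were tested on simulated counts. The members, the 39 pathway genes, the marker lists and the motifs were chosen with earlier results of these data known. The genes named are the members, pathway genes that were called or had the largest change of their role, and the 10 genes most like the member mean. Gene models came from GENCODE M39, which matched 78168 of 78239 identifiers, and promoter windows from RefSeq. The result of 1 motif searched is not reported here. Within a tissue, replicates were labelled as separate mice, and 0 pairs of libraries held identical counts.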

Additional observations from a re-analysis of the deposited data

Results flagged for a closer look

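*H2-K1* in the livers at 8 weeks had 1 library far from the others: replicate 3 was at 725.3 CPM, and the other 3 lay between 643.4 and 653.7 CPM. Its gap to the nearest was 0.874 of the range of the group, above Dixon's 95% critical value for 4 samples. It was the only one of 90 gene and group combinations to pass, where chance alone passes about 1 in 20.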

How the results depend on the processing

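The number of members called moved by over 1.5 times with a setting in 5 comparisons. Without a filter on low counts it was 4 instead of 0 in kidney at 12 against 8 weeks, 2 in kidney at 10 against 8 weeks, and 3 in heart at 12 and at 10 against 8 weeks. DESeq2 called 1 at 10 against 8 weeks in kidney and in heart, as did the fit of 2 ages only in heart. Leaving out 1 library gave 0 to 2 in heart at 12 against 8 weeks, with 2 without the fourth 12-week replicate. A log2 fold change over 1 left 2 of 8 in kidney against heart. The cause was not tested.

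With library size in place of TMM factors, values of kidney against heart reversed for *H2-D1* (0.4850), *B2m* (0.1419), *Tap1* (0.0514), *Tapbp* (0.2517) and *Nlrc5* (0.4623), and those of liver against heart for *Tap2* (-0.2025) and *Psmb10* (-0.1038). Over all genes, this scaling called 12170 higher and 5183 lower in kidney against heart, where TMM gave 9282 and 7694, 14248 and 3344 against liver (9074 and 7303), and 6999 and 9508 in liver against heart (8315 and 8277). *Nlrc5* in kidney against heart ran from -0.1486 to 0.0531 when 1 library was left out, the highest without the second 12-week heart. The other 414 recomputed counts stayed within 1.5 times, among them 9 of 10 in kidney against liver by library size and 7 or 8 in place of 9 in liver against heart. With the replicate number as a block, the count of members called was 0 in every age comparison and interaction and 8, 10 and 9 between tissues, as without it. Same-numbered libraries of different tissues at 1 age had a median correlation of deviations of 0.05 (36 pairs, 4 over 0.1). For different numbers it was -0.02 (108 pairs, 0 over 0.1). Between ages in a tissue the medians were 0.00 for the same number (36 pairs, 2 over 0.1) and -0.01 for different numbers (108 pairs, 7 over 0.1). The paper describes fewer mice at each age than libraries of that age, so libraries of different organs came in part from the same mice. Whether a number marks 1 mouse across tissues is not given in the sources used here. The numbers were not treated as pairs, and the main fits between organs took all 36 libraries as independent.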
